A study of Mus musculus with 6 samples.

Results

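The 10 genes described here encode agonists of the interleukin 1 family (Il1a, Il1b, Il18), their antagonists and decoys (Il1rn, Il1r2, Il18bp), and the parts of an inflammasome with the pore protein it opens (Nlrp3, Pycard, Casp1, Gsdmd). They were chosen by name, matched to the table through their Ensembl identifiers, and all 10 were found among its 22962 genes. The samples were alveolar macrophages of C57BL/6 mice, phagocytes that live on the air side of the lung. They were lavaged 2 weeks after saline or bleomycin, a DNA-breaking drug used to produce lung fibrosis, was instilled into the trachea. Lavage cells of both groups had their red cells lysed, were left to adhere to culture plates for 30 min in medium with serum, and were washed and lysed on the plate. Each group had 3 libraries, numbered saline 1 to 3 and, with a gap, bleomycin 1, 2 and 5. The labels give no age or sex, and do not say whether a library holds the cells of 1 mouse or of several. The p-values therefore measure the spread between these libraries, part of which may be technical.

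Interleukins 1 alpha and 1 beta bind the same receptor. The receptor antagonist made by Il1rn occupies that receptor without signalling, and Il1r2 is a decoy that captures the ligands but lacks the signalling domain. Interleukin 18 has its own receptor and a soluble scavenger, the binding protein made by Il18bp. Interleukins 1 beta and 18 are made as inactive precursors. When the sensor Nlrp3 is triggered it gathers the adaptor ASC (Pycard) and caspase 1 (Casp1), which cuts both precursors and gasdermin D (Gsdmd), whose freed part opens pores in the cell membrane. Transcripts of Il1b and Nlrp3 are induced through NF-kB, a step called priming, whereas cleavage and release are protein events that RNA sequencing does not measure. In the lung, alveolar macrophages express interleukin 18 and are a known source of interleukin 1 alpha on injury.

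The starts of the genes whose levels the results turn on are shown first, as the 250 bases before the RefSeq start on GRCm38.p6, read 5′ to 3′ on the coding strand, because Il1a and Il1b varied together among saline libraries whereas Il1r2, Il18bp and Il18 differed between the groups. Capitals mark matches on either strand to 6 motifs. These were the NF-kB consensus, an interferon response element, AP-1 (TGANTCA), PU.1 (GAGGAAGT), C/EBP (TTGCNNAA) and the TATA box (TATAAA), and no match overlapped another in the windows printed.
Il1a: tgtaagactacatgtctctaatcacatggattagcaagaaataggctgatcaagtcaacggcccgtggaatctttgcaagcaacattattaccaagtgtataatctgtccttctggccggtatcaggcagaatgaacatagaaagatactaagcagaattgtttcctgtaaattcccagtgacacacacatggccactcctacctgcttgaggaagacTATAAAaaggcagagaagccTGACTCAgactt
Il1b: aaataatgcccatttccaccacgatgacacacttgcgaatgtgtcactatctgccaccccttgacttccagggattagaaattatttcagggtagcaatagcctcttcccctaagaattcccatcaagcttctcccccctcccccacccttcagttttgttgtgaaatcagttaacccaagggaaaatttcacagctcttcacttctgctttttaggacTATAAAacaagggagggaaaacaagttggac
Il1r2: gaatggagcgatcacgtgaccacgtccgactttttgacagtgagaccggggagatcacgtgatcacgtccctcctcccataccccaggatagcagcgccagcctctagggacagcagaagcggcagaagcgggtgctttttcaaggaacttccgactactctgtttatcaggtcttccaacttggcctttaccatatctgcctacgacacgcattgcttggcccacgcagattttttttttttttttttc
Il18bp: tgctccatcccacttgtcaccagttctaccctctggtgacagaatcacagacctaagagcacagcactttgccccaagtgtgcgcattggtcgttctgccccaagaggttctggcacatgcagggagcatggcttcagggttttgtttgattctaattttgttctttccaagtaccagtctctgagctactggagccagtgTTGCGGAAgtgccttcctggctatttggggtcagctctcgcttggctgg
Il18: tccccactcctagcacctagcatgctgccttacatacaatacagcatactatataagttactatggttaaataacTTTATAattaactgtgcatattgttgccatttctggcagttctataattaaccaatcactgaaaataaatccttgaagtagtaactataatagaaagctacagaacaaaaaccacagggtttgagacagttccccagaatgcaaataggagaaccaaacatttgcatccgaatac
The windows lie at chr2:129309973-129310222 (Il1a, minus strand), chr2:129371140-129371389 (Il1b, minus strand), chr1:40085843-40086092 (Il1r2, plus strand), chr7:102018233-102018482 (Il18bp, minus strand) and chr9:50554450-50554699 (Il18, plus strand). Il1a and Il1b each had TATAAA on the coding strand, at 32 to 27 and 31 to 26 bases before the start, a motif found on either strand in 12.4% of 32817 such windows. Il1a also had TGACTCA at 12 to 6 bases before the start, where AP-1 matched 6.75% of windows. Il18bp had TTGCGGAA, a C/EBP match shared by 9.57% of windows, at 49 to 42 bases, and Il18 had a reversed TATA box far upstream, at 175 to 170 bases. No motif matched in the Il1r2 window. That window and the Il18bp window lie inside the gene spans given below, so starts further upstream were not searched for these genes. The NF-kB consensus, in 3.9% of windows, matched only in an Nlrp3 window among the 9 members with a window in the table, and the interferon element, in 2.97%, in none of them. AP-1 also matched in 1 of 3 Il1rn windows, and PU.1, in 2.44% of all windows, in the Pycard window with a second C/EBP match. A match describes letters and not a bound site. No window was matched for Gsdmd.

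Library depth was 27654799 to 37147983 reads. Values are normalized read counts, that is reads divided by 1 size factor per library, so that 3 reads correspond to 2.59 to 3.3. Log2 differences are bleomycin minus saline on log2(value + 1), with their standard error, and a gene is called at a limma adjusted p under 0.05 over the 13512 genes tested. The label was checked against markers of resident alveolar macrophages: Siglecf was at 12651 to 16187 in saline and 7228 to 8182 in bleomycin libraries, and the summed level of the 14 resident markers was 751459 to 886857 and 460384 to 629997. The largest part of that sum was Chil3, at 311298 to 476558 in saline and 179106 to 264167 in bleomycin. Over the same libraries the 14 markers of monocytes and monocyte-derived macrophages summed to 22164 to 28763 in saline and 165183 to 295317 in bleomycin, lowest among the latter in replicate 1. Most of the bleomycin sum was Apoe, at 2063 to 2479 in saline and 112162 to 203688 in bleomycin. Of 13 tested monocyte markers 12 rose (9.76% of all genes rose). Fewer cells of a type and less RNA per cell cannot be told apart in such bulk samples. Saline libraries differed in genes of the NF-kB response. Replicate 1 was the lowest of them in 13 of 16 tested priming genes and in 9 of the 10 members, against 33.9% of all genes tested. Replicate 2 was the highest in most of these priming genes, such as Il6 (21.6, 94.5 and 26.5 across saline 1 to 3) and Icam1 (3229, 11094 and 5572). Which of the 2 libraries is unusual was not tested. Results that rest on saline replicate 1 are given with and without it, and some also without saline replicate 2.

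All 10 members passed the filter on low values, and 3 were called, against 13.7% of all genes tested. Il1r2 and Il18bp rose (9.76% of all genes rose) and Il18 fell (3.9% fell). The remaining 7, among them Il1a, Il1b, Il1rn and the whole inflammasome group, did not pass the test. The groups did not overlap in the same 3 members, against 30.8% of all genes. The median log2 difference was 0.14 over the members and -0.01 over all genes tested. With 10 members, nothing particular to the list is read from these counts. The shares of all genes that rose (9.76%) and fell (3.9%) also stand beside every count of lists and markers below.

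**Figure D1:**
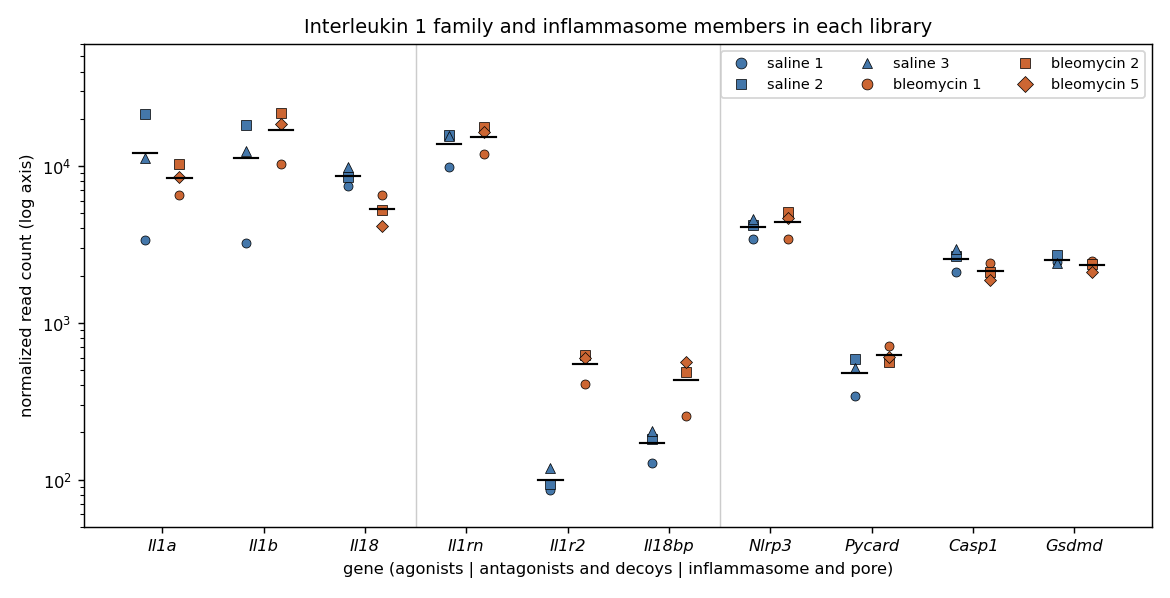
Normalized read count (log axis) of each member in the 6 libraries, saline in blue and bleomycin in orange, with a symbol for each replicate number and a bar at the group mean. Il1a and Il1b spread 6.38-fold and 5.69-fold within saline, the groups separate in Il18, Il1r2 and Il18bp, and they overlap in the other members.

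Among the agonists, Il18 (ENSMUSG00000039217, chromosome 9, 50554827 to 50581840, plus strand) was the member that fell. Its values were 7406, 8567 and 9821 across saline 1 to 3, then 6494, 5256 and 4139 across bleomycin 1, 2 and 5. Every bleomycin library lay below every saline library, with replicate 5 the lowest. The means were 8598 ± 1208 in saline and 5296 ± 1178 in bleomycin libraries (mean ± SD, n = 3 each), 1.64-fold lower after bleomycin (log2 -0.71 ± 0.18, limma adjusted p = 0.0311). Leaving out saline 2, saline 3, bleomycin 2 or bleomycin 5 ended the call (limma adjusted p = 0.081, 0.108, 0.0929 and 0.114) as did a test with no intensity trend (0.0886), with the same direction in all 16 alternative settings (adjusted p = 0.00329 to 0.495). Of 14 markers of resident alveolar macrophages tested, 9 fell (3.9% of all genes fell) and 0 rose in the same libraries. The part of resident cells in the Il18 result was not tested.

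Il1b (ENSMUSG00000027398, chromosome 2, 129364570 to 129371139, minus strand), the precursor that caspase 1 cuts, was abundant in both groups and varied widely among saline libraries. Its values were 3209, 18252 and 12425 across saline 1 to 3, then 10289.9, 21717 and 18562 across bleomycin 1, 2 and 5. Saline replicate 1 was far below the other saline libraries, and saline replicates 2 and 3 lay within the bleomycin range. The means were 11295 ± 7584 in saline and 16856 ± 5901 in bleomycin libraries (mean ± SD, n = 3 each), and the difference did not pass (log2 0.84 ± 0.58, limma adjusted p = 0.431), with a 95% interval of -0.48 to 2.15. Without saline replicate 1 the log2 difference was 0.094 (limma adjusted p = 0.903) and without saline replicate 2 it was 1.35 (0.192). The highest saline value was 5.69 times the lowest, a spread reached by 2.41% of genes tested. Neutrophils also express Il1b. The neutrophil markers summed to 2579.9, 4251 and 3158 across saline 1 to 3. Most of those tested were highest in saline replicate 2, as Il1a and Il1b were among saline libraries. They were S100a8 (166, 434 and 239), S100a9 (4.9, 503 and 7.42), Lcn2 (14.7, 319 and 8.48), Csf3r and Ltf. Csf3r had 1029.6, 1734 and 984, and Ltf 12.7, 58.7 and 49.8. Retnlg and Stfa2l1, under the filter, were also highest there. The other tested markers, Cxcr2 (264, 179 and 334) and Mmp8 (1088, 998 and 1536), were lowest in saline replicate 2. The part of neutrophils in the spread was not tested.

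Il1a (ENSMUSG00000027399, chromosome 2, 129299610 to 129309972, minus strand), which can act without cleavage by caspase 1, also spread widely among saline libraries. Its values were 3391, 21616 and 11209.5 across saline 1 to 3, then 6493, 10250.2 and 8563 across bleomycin 1, 2 and 5. Saline replicate 1 was again the lowest of all 6 libraries and saline replicate 2 the highest, with the bleomycin libraries between them. The means were 12072 ± 9143 in saline and 8435 ± 1882 in bleomycin libraries (mean ± SD, n = 3 each). The difference was log2 -0.18 ± 0.56, limma adjusted p = 0.89, with a 95% interval of -1.45 to 1.10. The sign of the difference depended on single libraries, from -0.91 without saline replicate 1 (limma adjusted p = 0.0993) to 0.43 without saline replicate 2. The highest saline value was 6.38 times the lowest, a spread reached by 1.97% of genes tested, whereas in bleomycin libraries it was 1.58 times the lowest, reached by 25.2%.

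Il1a and Il1b lie close to each other on chromosome 2, in the same orientation. Exons of Il1a overlap 222 bases of Gm14023 on the other strand, and those of Il1b 25 bases of the antisense gene Il1bos. Whether reads were counted by strand is not stated in the sources used here. The levels of both partners were low, at most 218 and 46.1 in any library.

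**Figure D2:**
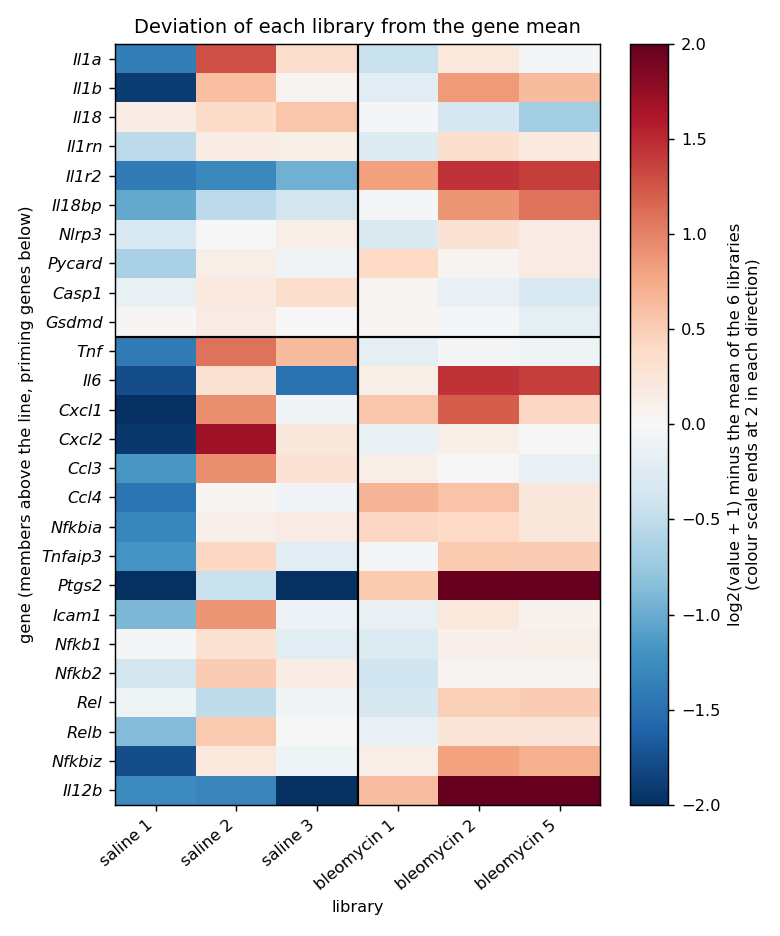
Deviation of each library (columns) from the gene's mean over the 6 libraries on log2(value + 1), for the 10 members above the line and 16 tested priming genes of the NF-kB response below it, with red above and blue below the mean. Saline 1 is the lowest saline library for Il1a, Il1b, Tnf and Cxcl2, and the bleomycin columns are red for Il1r2, Ptgs2 and Il12b.

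Both decoys were called, and Il1r2 (ENSMUSG00000026073, chromosome 1, 40074079 to 40125231, plus strand) had the largest difference among the members. Its values were 86.3, 93.4 and 118 across saline 1 to 3, then 408, 625 and 599 across bleomycin 1, 2 and 5. All bleomycin libraries lay above all saline libraries, with replicate 1 the lowest of them. The means were 99.1 ± 16.5 in saline and 544 ± 119 in bleomycin libraries (mean ± SD, n = 3 each), a 5.39-fold rise (log2 2.43 ± 0.22, limma adjusted p = 0.000324, 95% interval 1.93 to 2.94). The rise was called in all 16 alternative settings, with log2 2.27 to 2.63 and an adjusted p of up to 0.00287. Il1r2 is also made by neutrophils. Of 14 neutrophil markers listed, 7 were tested, of which 3 rose (S100a8, Cxcr2 and Mmp8) and 0 fell. The 11 with values, tested or not, summed to 2579.9 to 4251 in saline and 5757 to 6681 in bleomycin libraries. The largest part of the bleomycin sum was Mmp8, at 2608 to 3383, against 998 to 1536 in saline. The other tested neutrophil markers were not called. In bleomycin libraries Csf3r was at 760 to 1353, Lcn2 at 51.6 to 62.9, S100a9 at 20.7 to 56.0 and Ltf at 21.6 to 30.8. Camp, Retnlg, Mpo and Stfa2l1 were under the filter, at 0 to 1.8, 0 to 2.2, 1.72 to 3.3 and 0 in bleomycin libraries. Of 7 dendritic cell markers 5 rose, with sums, mostly Clec9a and Ccr7, of 285 to 631 in saline and 1004 to 2149.8 in bleomycin. Among those that rose, Flt3, Cd209a and Siglech passed the filter only with bleomycin values, which favours a rise. Clec9a and Zbtb46 were not called (limma adjusted p = 0.338 and 0.123). Of 13 tested monocyte markers 12 rose. The part of neutrophils, monocyte-derived cells and dendritic cells in the Il1r2 rise was not tested.

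Il18bp (ENSMUSG00000070427, chromosome 7, 102014885 to 102018690, minus strand), the scavenger of interleukin 18, had values of 128, 183 and 204 across saline 1 to 3, then 255, 485 and 559 across bleomycin 1, 2 and 5. Bleomycin replicate 1 lay closest to saline, and the groups did not overlap. The means were 172 ± 38.8 in saline and 433 ± 158 in bleomycin libraries (mean ± SD, n = 3 each), a 2.43-fold rise (log2 1.28 ± 0.31, limma adjusted p = 0.0278). Leaving out saline 1, saline 2, bleomycin 2 or bleomycin 5 ended the call (limma adjusted p = 0.0815, 0.0624, 0.105 and 0.113) as did a test with no intensity trend (0.0693), with the same direction in all 16 settings (adjusted p = 0.000138 to 0.113). Il18bp shares 80 exon bases with Numa1 on the other strand, which was at a mean of 4935 in saline and 4311 in bleomycin libraries. Most of the monocyte and dendritic cell markers given for Il1r2, with the limits stated there, were called higher in the same libraries. The part of these cells in the Il18bp rise was not tested.

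Il1rn (ENSMUSG00000026981, chromosome 2, 24336853 to 24351494, plus strand), the receptor antagonist, was the most abundant of the antagonists per kilobase of exon and did not pass the test. Its values were 9865, 15820.1 and 15524 across saline 1 to 3, then 11895, 17760.1 and 16382 across bleomycin 1, 2 and 5, and replicate 1 was the lowest library of each group. The means were 13736 ± 3356 in saline and 15346 ± 3067 in bleomycin libraries (mean ± SD, n = 3 each). The difference was log2 0.17 ± 0.22, limma adjusted p = 0.7, with a 95% interval of -0.32 to 0.67. Il1rn has 3 start windows in RefSeq, and gene counts do not separate its secreted and intracellular forms.

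The inflammasome group had 0 called members of 4. By limma 0 of the 4 also had an unadjusted p under 0.05, and edgeR and DESeq2 called 0 as well. Nlrp3 (ENSMUSG00000032691, chromosome 11, 59541568 to 59566956, plus strand), the sensor, had values of 3401, 4188 and 4575 across saline 1 to 3, then 3436, 5079 and 4681 across bleomycin 1, 2 and 5. The 2 ranges overlapped, with saline replicate 1 and bleomycin replicate 1 the lowest (log2 0.11 ± 0.17, limma adjusted p = 0.767, 95% interval -0.29 to 0.50). Casp1 (ENSMUSG00000025888, chromosome 9, 5298517 to 5307265, plus strand) had 2094, 2652 and 2946 after saline against 2414, 2099 and 1886 after bleomycin (log2 -0.26 ± 0.16, limma adjusted p = 0.356, 95% interval -0.61 to 0.096), with the lowest value in bleomycin replicate 5 and the highest in saline replicate 3.

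Gsdmd (ENSMUSG00000022575, chromosome 15, 75862327 to 75867408, plus strand) had the narrowest range of the 10 members in saline. Its values were 2454, 2722 and 2420.1 after saline against 2490.1, 2384 and 2107 after bleomycin (log2 -0.12 ± 0.11, limma adjusted p = 0.575, 95% interval -0.38 to 0.14), and 87.1% of genes tested spread at least as far among saline libraries. Pycard (ENSMUSG00000030793, chromosome 7, 127989708 to 127993867, minus strand) was the lowest of the group. It had 342, 583 and 512 after saline against 714, 560.4 and 603 after bleomycin (log2 0.41 ± 0.21, limma adjusted p = 0.273, 95% interval -0.071 to 0.90), and saline replicate 1 was the lowest library and saline replicate 2 lay within the bleomycin range. Without saline replicate 1 the log2 difference was 0.19 (limma adjusted p = 0.561). A p that misses the threshold does not show equal levels, and the intervals give the differences that remain possible. Exons of Pycard overlap 485 bases of Gm45205, which had at most 1.1 in any library.

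**Figure D3:**
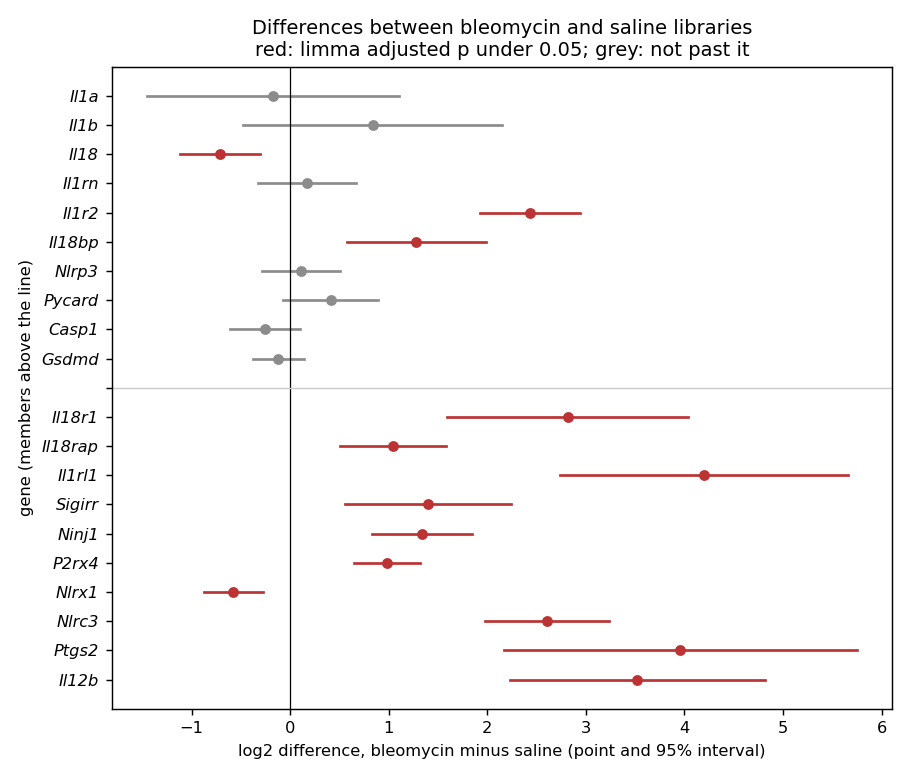
Log2 difference (bleomycin minus saline) with its 95% interval for the 10 members and, below the line, for the 10 called genes of the wider pathway lists; red marks a limma adjusted p under 0.05. Among the members Il1r2 and Il18bp lie to the right of 0 and Il18 to the left, and the intervals of Il1a and Il1b are the widest.

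Compared per kilobase of merged exons, the order of mean levels in saline was Il18 (8339.6 ± 1172), Il1a (6116 ± 4632), Il1b (5923 ± 3977), Il1rn (2482 ± 606), Casp1 (1713 ± 289), Gsdmd (1065 ± 69.5), Nlrp3 (999 ± 148), Pycard (126 ± 32.6), Il18bp (56.7 ± 12.8) and Il1r2 (52.0 ± 8.63), as normalized counts per kilobase (mean ± SD, n = 3). Between neighbours in this order the library values of Il18 and Il1a, Il1a and Il1b, Il1b and Il1rn, Il1rn and Casp1, Gsdmd and Nlrp3, and Il18bp and Il1r2 overlapped. In bleomycin libraries the order was Il1b (8839 ± 3095), Il18 (5137 ± 1142), Il1a (4273 ± 953), Il1rn (2772 ± 554), Casp1 (1425 ± 177), Nlrp3 (1084 ± 211), Gsdmd (979 ± 83.3), Il1r2 (285 ± 62.2), Pycard (165 ± 20.9) and Il18bp (143 ± 52.3). There the values of Il1b and Il18, Il18 and Il1a, Nlrp3 and Gsdmd, and Pycard and Il18bp overlapped. Merged exons are longer than any 1 transcript for some members, Il1rn and Pycard among them, which lowers their level on this scale.

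Antagonists were set against agonists as ratios of levels per kilobase within each library, which do not depend on the scaling between libraries. The ratio of Il18bp to Il18 was 0.00591, 0.00726 and 0.00706 across saline 1 to 3, then 0.0134, 0.0314 and 0.046 across bleomycin 1, 2 and 5. Every bleomycin library lay above every saline library, and the group means on the log2 scale differed by 2.00, or 4-fold. In an exact two-sided permutation test p was 0.1, the smallest that 3 against 3 libraries allow, and 0.3 adjusted over the 3 ratios tested. The groups stayed apart without any 1 library (log2 difference of 1.61 or more in each case).

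The ratio of Il1rn to Il1b was 1.06, 0.299 and 0.43 across saline 1 to 3, then 0.398, 0.282 and 0.304 across bleomycin 1, 2 and 5. Saline replicate 1 was the highest, and saline replicate 2 lay within the bleomycin range (exact permutation p = 0.3, adjusted p = 0.45). The log2 difference was -0.67 with all libraries and -0.14 without saline replicate 1. Set against Il1a and Il1b together it was 0.524, 0.139 and 0.23 across saline 1 to 3, then 0.247, 0.194 and 0.21 across bleomycin 1, 2 and 5, with overlapping groups (exact permutation p = 0.8, adjusted p = 0.8), and the difference changed sign without saline replicate 1 (log2 0.27).

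**Figure D4:**
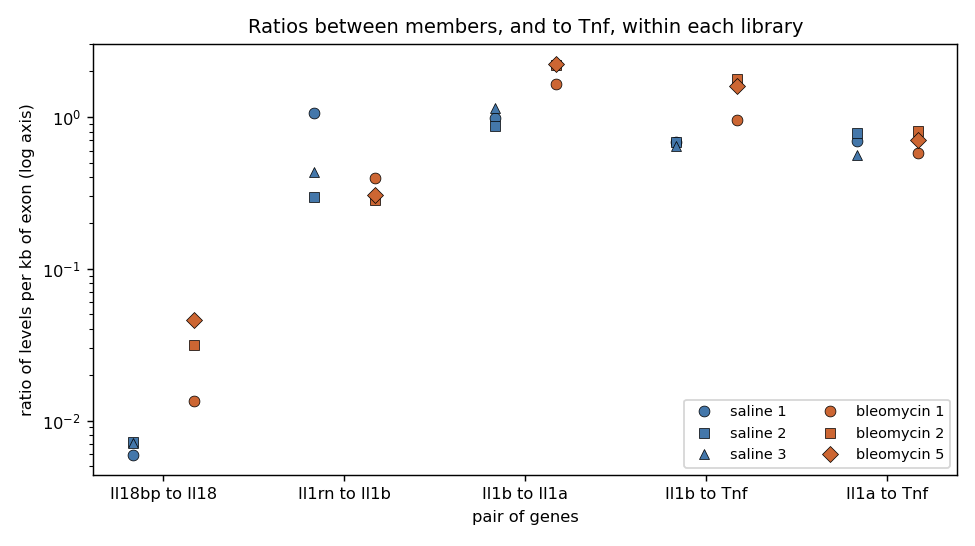
Ratios of levels per kilobase of exon (log axis) within each library, saline in blue and bleomycin in orange. The Il18bp to Il18 ratio is higher in all 3 bleomycin libraries, the Il1rn to Il1b ratio overlaps, and the 3 pairs on the right, chosen after the values were seen, show Il1b above its saline ratio to Il1a and to Tnf while Il1a to Tnf overlaps.

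Likeness to other genes was measured as the root mean square difference of mean-centred log2(value + 1) over the 6 libraries, predicted genes left out. The gene most like Il1a was Tnf, at 0.203, whose values were 4045, 22870.2 and 16664 after saline against 9338, 10512 and 10057 after bleomycin. Tnf encodes the inflammatory cytokine tumour necrosis factor, is itself a priming gene, and was lowest in saline replicate 1 and highest in saline replicate 2, as was Il1a. Next for Il1a came Ltf, at 0.237, which is among the listed neutrophil markers. Its values were 12.7, 58.7 and 49.8 after saline against 21.6, 30.8 and 27.6 after bleomycin. The genes most like Il1b were Rsad2, an interferon-induced gene, at 0.205 and Nfkbie, an inhibitor of NF-kB, at 0.225, closer than its nearest member Il1a at 0.539. For Il1r2 they were Basp1 (0.101) and Nedd4l (0.104), for Il18bp Phf11d (0.0911) and Zc3h12c (0.116), and for Il18 Cdk2ap2 (0.0408) and Fkbp4 (0.0488). Among the members the nearest were Il1rn and Nlrp3, at 0.115.

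In the wider pathway, of 9 listed receptors of the family 7 were tested, 4 rose and 0 fell (9.76% of all genes rose), with a median log2 difference of 1.04 against -0.01 over all genes. All 4 were low, at most 122 in any library. Il18r1 and Il1rl1 passed the filter only through their bleomycin values, which favours rises in the count and in the median. Il18r1, the ligand-binding chain of the interleukin 18 receptor, had 11.8, 3.26 and 6.36 after saline against 28.7, 65.9 and 69.0 after bleomycin (log2 2.81 ± 0.54, limma adjusted p = 0.00946), and its partner chain Il18rap 57.9, 45.6 and 54.1 after saline against 92.5, 114 and 122 after bleomycin (log2 1.04 ± 0.24, limma adjusted p = 0.0207). Sigirr, a receptor that dampens signalling of the family, had 11.8, 15.2 and 15.9 after saline against 27.8, 53.8 and 39.7 after bleomycin (log2 1.40 ± 0.37, limma adjusted p = 0.0391).

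Il1rl1, the receptor for interleukin 33, was covered by 2 saline reads in all and 103 bleomycin reads, which scaled for depth is a ratio of 46.6, with a 95% exact binomial interval of 12.6 to 390.3 that covers counting error only (limma adjusted p = 0.00342). Its ligand Il33 was under the filter, at 6.86, 3.26 and 0 after saline against 4.49, 18.7 and 13.8 after bleomycin. Il33 is made by epithelial cells and fibroblasts, whose marker sums were 5811 to 6969 and 35.3 to 321 after saline and 4217 to 4759 and 219 to 849 after bleomycin. Of the fibroblast markers only Col3a1 and Dcn were called, both higher. Col1a1 and Col1a2, much of the fibroblast sum, were not called (limma adjusted p = 0.289 and 0.0643). Col1a1 was at 200 in saline 3 and 51.6 in bleomycin 2. The epithelial sum is mostly Epcam and Cdh1. Of its 8 markers Epcam fell and 4 rose, which were Sftpc, Sftpb, Sftpa1 and Krt18 (7.65, 8.82, 8.81 and 16.6-fold). Il18r1, Il18rap and Il1rl1 are typical of lymphocytes, mast cells and basophils. In the same libraries the T cell marker Cd3e was at 0 to 2.94 in saline and 21.6 to 88.8 in bleomycin. Of 10 T cell markers 9 rose and Cd2, the remaining one, fell. All of those that rose except Il7r passed the filter only with their bleomycin values, which favours rises in the count. The sum of the T cell markers, mostly Cd2, was 12913 to 15645 in saline and 9956 to 11805 in bleomycin. Summed natural killer markers were 8.69 to 18.0 in saline and 47.6 to 107 in bleomycin. Of the mast cell, basophil and eosinophil list only Kit and Cpa3 were analysed, with sums of 6.36 to 36.3 and 113 to 263. Mcpt8, Fcer1a, Prg2 and Epx of that list were not. The 2 sums each rest mostly on 1 gene, Klrd1 (39.5 to 87.1 after bleomycin) and Kit (109.6 to 260.3). Klrb1c was at 1.96 to 8.48 and 6.59 to 10.3, and the mast cell gene Cpa3 at 0 to 4.35 and 2.59 to 3.59. The part of these cells in the receptor rises was not tested.

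The signalling receptor of interleukin 1 did not pass: Il1r1 had 126, 64.1 and 52.0 after saline against 72.8, 132 and 96.5 after bleomycin (log2 0.38 ± 0.37, limma adjusted p = 0.602), and its accessory chain Il1rap 1253, 777 and 1211 after saline against 967, 1164 and 1139 after bleomycin (log2 0.04 ± 0.19, limma adjusted p = 0.93). Without bleomycin replicate 2 or 5 the Il18r1 rise did not pass (limma adjusted p = 0.0522 and 0.0535), nor did that of Il18rap without these or saline replicate 2 (0.105, 0.116 and 0.0538). Sigirr passed only when bleomycin replicate 1 was the library left out (otherwise limma adjusted p = 0.0688 to 0.203), and not with no filter (0.0698). With quantile normalization Il18rap and Sigirr did not pass (0.08 and 0.118), and the Il1rl1 rise passed in each of the 15 settings that tested it.

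Below the receptors, 0 of 11 genes were called (13.7% of all genes were called), with a median log2 difference of 0.01. By limma 4 of them had an unadjusted p under 0.05, edgeR also called 0 and DESeq2 called 1. The adaptor Myd88 had 4111, 4514 and 5122 after saline against 4144, 3585 and 3403 after bleomycin (log2 -0.30 ± 0.13, limma adjusted p = 0.173) and the inhibitory kinase Irak3 1040.4, 1581 and 1009 after saline against 767, 1282 and 1228 after bleomycin (log2 -0.15 ± 0.24, limma adjusted p = 0.765). Among 15 tested sensors, caspases and pore proteins other than the members, 0 fell and 1 rose (9.76% of all genes rose). This was Ninj1, which ruptures the plasma membrane in dying cells, with 614, 953 and 1156 after saline against 1935, 2289.8 and 2475 after bleomycin, a 2.53-fold rise (log2 1.34 ± 0.22, limma adjusted p = 0.0052) that passed in every alternative setting. Caspase 11, encoded by Casp4, had 938, 1662 and 2013 after saline against 1819, 2146 and 1861 after bleomycin (log2 0.40 ± 0.25, limma adjusted p = 0.381), with saline replicate 1 the lowest. The DNA sensor Aim2 (log2 0.015 ± 0.13, limma adjusted p = 0.965) and the flagellin pathway sensor Nlrc4 (log2 -0.29 ± 0.15, adjusted p = 0.283) did not pass.

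Of 11 tested triggers and regulators of Nlrp3, 2 rose (9.76% of all genes rose) and 1 fell (3.9% fell). P2rx4, an ATP-gated ion channel, had 3749.7, 4698 and 3806 after saline against 6842, 8219 and 9201 after bleomycin, a 1.98-fold rise (log2 0.98 ± 0.15, limma adjusted p = 0.00299). Nlrc3, a member of the Nlrp3 protein family that restrains innate signalling, had 53.0, 40.2 and 31.8 after saline against 199, 248 and 326 after bleomycin, a 6.07-fold rise (log2 2.60 ± 0.28, limma adjusted p = 0.000631). Nlrx1, a mitochondrial member of that family, fell from 2459.9 ± 263 to 1648 ± 188 (log2 -0.58 ± 0.13, limma adjusted p = 0.0218), which did not pass when saline 1, bleomycin 2 or bleomycin 5 was left out (limma adjusted p = 0.0668, 0.0761 and 0.107) or with no intensity trend (0.0624). P2rx7, the ATP-gated channel that triggers Nlrp3, lay just outside the threshold with 1011, 1119 and 945 after saline against 1203, 1894 and 1783 after bleomycin (log2 0.64 ± 0.18, limma adjusted p = 0.0501). Nek7, a kinase that binds Nlrp3, had 3151, 2917 and 3065 after saline against 3546, 3593 and 3569 after bleomycin (log2 0.23 ± 0.097, limma adjusted p = 0.176). Nlrc3 is strong in T cells. Their markers other than Cd2 rose in the same libraries, but most of these passed the filter only with bleomycin values. The part of T cells in the Nlrc3 rise was not tested.

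Of 16 tested priming genes of the NF-kB response, 2 rose and 0 fell, close to the share over all genes, and the median log2 difference was 0.56. Ptgs2, which encodes cyclooxygenase 2, had 34.3, 279 and 90.1 after saline against 546, 2505 and 2466 after bleomycin (log2 3.96 ± 0.79, limma adjusted p = 0.0115). Its log2 difference was 3.23 without saline replicate 1, 4.73 without saline replicate 2 and 4.69 without bleomycin replicate 1, called each time. The other gene that rose was Il12b, a subunit of interleukins 12 and 23, with 15.7, 15.2 and 5.3 after saline against 61.1, 192 and 215 after bleomycin (log2 3.52 ± 0.57, limma adjusted p = 0.00448). Both genes are also made by dendritic cells. Their markers other than Clec9a and Zbtb46 were called higher in the same libraries, some passing the filter only with bleomycin values. The part of dendritic cells was not tested. Tnf did not pass (log2 -0.21 ± 0.54, limma adjusted p = 0.857). Without saline replicate 1 the 3 bleomycin libraries were below both remaining saline libraries and Tnf was called as lower (log2 -0.97, limma adjusted p = 0.00837), whereas without saline replicate 2 its difference was 0.28.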

How the data were processed

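Alveolar macrophages of 3 saline and 3 bleomycin libraries were profiled by RNA sequencing, and groups were taken from the labels' titles. Per the submitters' processing notes, the tools included DESeq2, HTSeq 0.6.0, STAR 2.5.2b and bcl2fastq 2.18.0.12, and the build was mm10. Their roles, the annotation and the strand setting are not stated there. The authors deposited a normalized signal, read counts over a size factor. Dividing each library by the value of 1 read gave whole reads for 100% of values above 0 (within 0.05 of a read), and size factors recomputed from these reads equalled those implied. Symbols were found for 22884 identifiers, and coordinates are from GENCODE M21 on GRCm38, the assembly that mm10 names.

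The 13512 genes that reached 10 in 3 libraries or more entered a two-sided limma test (version 3.58.1, R 4.3.3) of log2(value + 1), with an intensity trend, no other term and Benjamini-Hochberg adjustment over all of them. Changes of low genes are understated on that scale. Some low genes passed the filter only through their bleomycin values, which favours a rise in them. These genes include Il1rl1, Il18r1, Il12b, most T cell markers such as Cd3e, and dendritic cell markers such as Siglech. The members, lists and rules were chosen with earlier results of these data known. All members were described, and of the wider lists the called genes and 12 genes fixed by name; examples of marker genes and the comments on Il36g and on ratios to Tnf or Il1a were chosen after their values were seen. Il1f10, Il36a, Il36b, Il36rn, Il1rapl1, Il1rapl2, Nlrp6 and 8 listed markers were not analysed here. The 16 alternatives were the quasi-likelihood test of edgeR 4.0.16 and DESeq2 1.42.0 (both on recovered reads), TMM, quantile normalization, no trend, no filter or a minimum of 50, pseudocounts of 0.5 or 5, a replicate block, and leaving out each library with the same genes tested. With edgeR 1821 genes were called, with DESeq2 2206. Libraries of a group differed beyond sampling noise. The fit was also run on simulated counts, drawn independently for each gene around the saline means. Libraries in which many genes shift together were not covered by it. Promoter windows are from RefSeq on GRCm38.p6.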

Additional observations from a re-analysis of the deposited data

How the results depend on the processing

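Without 1 library at a time, the members called numbered 1 to 3 (3 with all libraries), all genes called 951 to 2081 (1846 with all) and called genes of the wider lists 6 to 16 (10 with all). The fewest were without bleomycin replicate 2 (1 member, 999 genes, 6 of the wider lists) or 5 (1, 951 and 6); without saline replicate 2 the members called were 1. Log2 differences ranged from -0.87 to -0.55 for Il18, 1.06 to 1.62 for Il18bp, -0.91 to 0.43 for Il1a, -0.051 to 0.34 for Il1rn, -0.013 to 0.28 for Nlrp3, -0.97 to 0.28 for Tnf and -0.69 to 0.27 for the ratio of Il1rn to Il1a plus Il1b. With no intensity trend 1 member was called, and Il18 (-0.71) and Il18bp (1.28) did not pass. DESeq2 called 16 genes of the wider lists. With quantile normalization 1114 genes rose and 752 fell, against 1319 and 527 as deposited. The cause of these shifts was not tested. Receptors called were 1 at a minimum of 50, where fewer were tested, and 2 with quantile normalization; priming genes called were 4 with no filter and 4 by DESeq2. The groups share replicate numbers 1 and 2, whose libraries did not deviate together (correlations -0.20 and 0.02 over 13512 genes). With the replicate number as a block, 1147 genes were called, Il1b was called (log2 0.97, limma adjusted p = 0.0334; 0.0334 to 0.903 over all alternatives), Il18 (log2 -0.45, adjusted p = 0.495), Nlrx1 (0.325), Il18rap (0.241) and Sigirr (0.184) were not, Tnf was at log2 0.043, and 7 priming genes and 2 receptors rose. Lengths of 1 principal transcript in place of merged exons, a choice made after seeing the data, rescale a single-gene ratio alike in every library, and the difference of the ratio of Il1rn to Il1a plus Il1b was -0.33 against -0.25. Receptors under 100 counts rest on few reads.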

Other observations

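Il1b stood higher relative to Il1a in the bleomycin libraries. The ratio of Il1b to Il1a, as levels per kilobase within a library, was 0.98, 0.874 and 1.15 across saline 1 to 3, then 1.64, 2.19 and 2.24 across bleomycin 1, 2 and 5. The saline libraries lay close together although each gene's level varied several-fold among them, and all 3 bleomycin libraries were higher, by 1.01 on the log2 scale or 2.02-fold. The ratio of Il1b to Tnf was 0.682, 0.686 and 0.641 across saline 1 to 3, then 0.947, 1.78 and 1.59 across bleomycin 1, 2 and 5, again higher in 3 of 3 bleomycin libraries, by 1.05. The ratio of Il1a to Tnf, 0.696, 0.785 and 0.559 across saline 1 to 3, then 0.577, 0.81 and 0.707 across bleomycin 1, 2 and 5, overlapped between the groups (exact permutation p = 0.7).

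The ratio of the decoy Il1r2 to Il1b was 0.0269, 0.00512 and 0.00947 across saline 1 to 3, then 0.0396, 0.0288 and 0.0323 across bleomycin 1, 2 and 5. The means were 0.0138 ± 0.0115 in saline and 0.0335 ± 0.00553 in bleomycin libraries (SD, n = 3). The groups did not overlap, but saline 1 lay close below bleomycin 2. These 4 ratios were chosen after the values were seen. Exact two-sided permutation p was 0.1 for each of the 3 that separate the groups, the smallest that 3 against 3 libraries allow, and 0.133 adjusted over the 4, so none passes a threshold of 0.05. Leaving out any 1 library kept the groups apart in these 3, with log2 differences of 0.92 to 1.16 for Il1b to Il1a, 1.06 to 2.26 for Il1r2 to Il1b and 0.87 to 1.33 for Il1b to Tnf. Neither the Il1b nor the Il1a level itself separated the groups. Monocyte markers were higher in the same bleomycin libraries, and their part in these ratios was not tested.

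Il36g, which encodes the family ligand interleukin 36 gamma, had 35.3, 302 and 58.3 after saline against 36.8, 22.0 and 23.3 after bleomycin (log2 -1.65 ± 0.70, limma adjusted p = 0.178). Saline replicate 2 was high, and the other 5 libraries overlapped. DESeq2 called it lower.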
